A study of Mus musculus with 2 samples.

Results

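The cells described here came from the end of a reversion experiment, in which primed mouse epiblast stem cells were treated for 16 days and some of them took on features of naive embryonic stem cells. Those cells were set against established naive embryonic stem cells, gene by gene. The cells were chosen by a measured value: a cell was a member when Dppa5a, a gene of the naive state that encodes a small RNA-binding protein, reached at least 1000 RPM, that is, reads per 1000000 of that cell's reads. By this rule 1278 of 4315 cells tagged d16 and 570 of 801 cells tagged naive were members, 1848 of the 17720 cells in the table. Their Dppa5a level was therefore used in the choice and is given only as a description, and the remaining genes were not used.

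All cells came from a single pooled cDNA library, in which each population was marked by its own oligonucleotide tag, held on the cell surface by antibodies to CD9 and CD63. The naive cells were of the Rex1-GFP line, a reporter line for the naive gene Rex1 (Zfp42), kept in 2iL, that is, 2 kinase inhibitors with LIF. The d16 cells descended from Oct4GIP, a primed epiblast stem cell line that carries GFP and a puromycin resistance gene under the Oct4 promoter, and they had been cultured on mouse embryonic fibroblast feeders in serum-containing Basal medium with LIF and AICAR, an AMP analogue that activates the kinase AMPK. The dose of AICAR was 0.5 mM up to day 6 and 1 mM afterwards. A further pair of populations of the same line serves as reference levels. The d16+10p cells had been expanded for 10 passages in 2iL after day 16 and were chosen by the same Dppa5a rule (926 of 1151 cells). The untreated primed cells, of a line maintained with FGF2 and activin A, were the 462 primed-tagged cells with at least 200 RPM of Pou5f1 and Dppa5a below 1000. Also used as references were the other d16 cells and 9555 d8-tagged cells, all with Dppa5a below 1000. The d8 cells came from Oct4GIP cells treated with AICAR and LIF on feeders up to day 8. The labels give 129/Ola as the strain of the library. The naive and the d16 cells thus differed in cell line, medium and drug together, and these cannot be told apart. Each population was 1 sample, so there is no replicate check, no p-value is given, and every interval covers counting error only.

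Naive pluripotency is the state of the epiblast before implantation, held in culture by LIF signalling through STAT3 and by inhibition of ERK and of the kinase GSK3. Primed cells resemble the epiblast after implantation and depend on FGF and activin. Both states share Pou5f1, Sox2 and Nanog, whereas factors such as Esrrb, Tfcp2l1, Klf2 and Zfp42 belong to the naive state, which also has low DNA methylation and transcribes some genes of the germ line.

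The limit on Dppa5a fell in a sparse range of both populations. Of the d16 cells, 45 lay between 750 and 1000 RPM and 48 between 1000 and 1333, whereas 1574 had no Dppa5a read at all. Of the naive cells, 16 and 18 lay in these ranges. The 3 d16 cells nearest to the limit had 1012, 1020 and 1020 RPM on the inner side and 975, 991 and 992 on the outer side, and for the naive cells the values were 1042, 1043 and 1045 against 962, 969 and 995. The share of members was 29.6% of the d16 cells (exact 95% interval 28.3 to 31.0) and 71.2% of the naive cells (67.9 to 74.3), against 3.40% of the primed-tagged and 0.748% of the d8-tagged cells. Among members the median Dppa5a level was 3611 RPM in d16 and 2696 in naive.

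**Figure D1:**
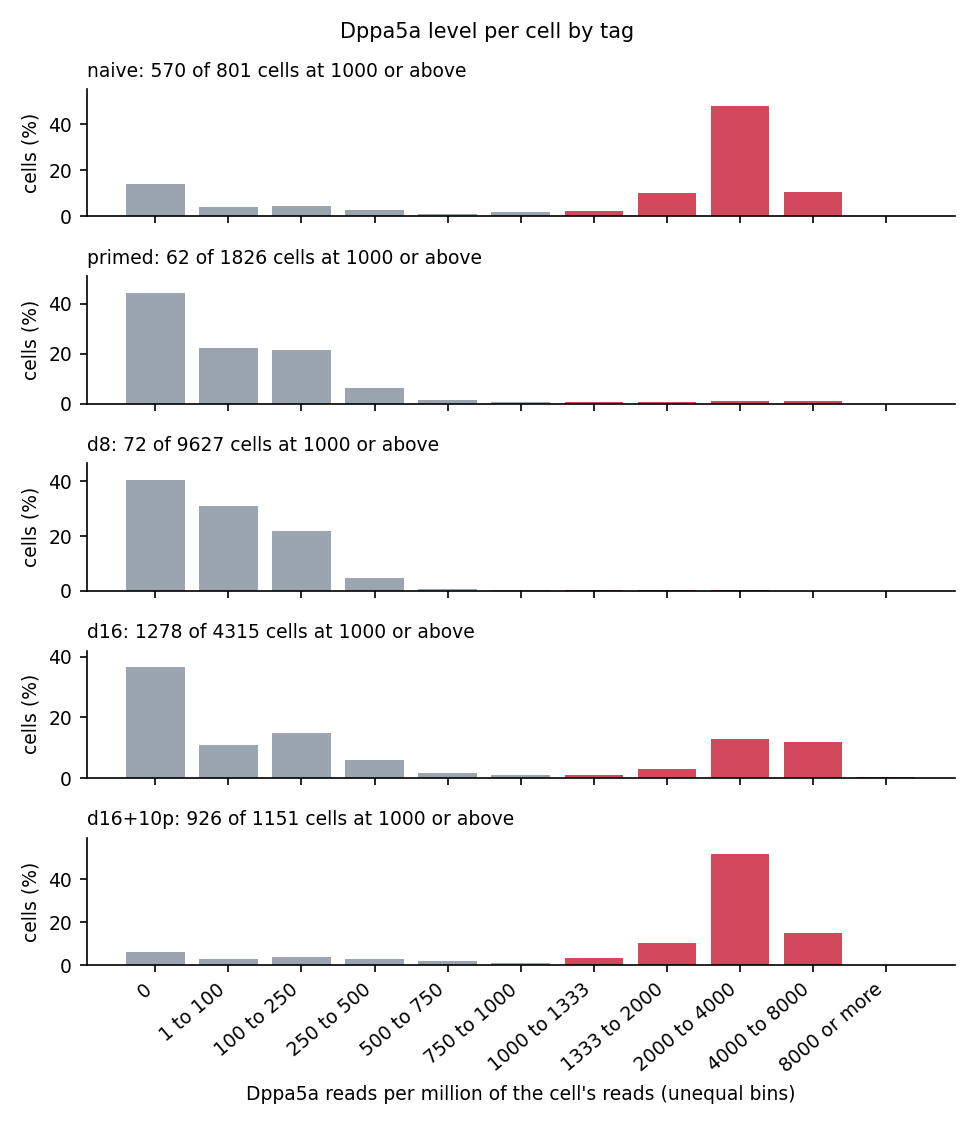
Share of cells (%, vertical axis) by Dppa5a level in RPM (horizontal axis, unequal bins) for the 5 tagged populations. Red bars hold the cells at 1000 or above: 570 of 801 naive and 1278 of 4315 d16 cells, with few cells of either in the bins beside the limit.

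The members differed in depth. The d16 members had a median of 14255 reads and the naive members 23536, with summed totals of 20774983 and 14171707 reads. Levels below are CPM, for which a gene's reads were added up over the cells of a group and scaled to a group total of 1000000. Ratios are on the log2(CPM + 1) scale, d16 to naive, and the interval of a ratio is the exact one without the pseudocount of 1 CPM, so that it can lie off the ratio for low genes. A gene was tested, in the sense of entering the count, when it reached 50 CPM in either group and 100 reads in both together, and it was called when the ratio was at least 2-fold.

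Most genes differed little in level between the d16 and the naive members, which were chosen by the same Dppa5a rule. Of 3805 tested genes, 3678 (96.7%) differed by less than 2-fold and 3311 (87.0%) by less than 1.5-fold. The counting interval of the ratio nevertheless excluded 0 for 3048 genes (80.1%). These shares were not counted against the other groups, so they do not show whether the d16 members were nearer to naive cells than to those. There were 86 genes at least 2-fold higher in d16 (2.26%) and 41 at least 2-fold lower (1.08%), and 15 and 7 of these passed 4-fold. The median log2 ratio over tested genes was 0.06, with 2134 genes above 0 and 1671 below. The split into higher and lower genes depended on how the totals were scaled. With TMM scaling the median was -0.10, and 59 genes were called higher and 71 lower. Of the called genes, 45.4% were then higher in d16 instead of 67.7%. Where only the 3058 genes at 50 CPM or above in both groups were counted, 35 were higher (1.14%) and 20 were lower (0.654%).

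**Figure D2:**
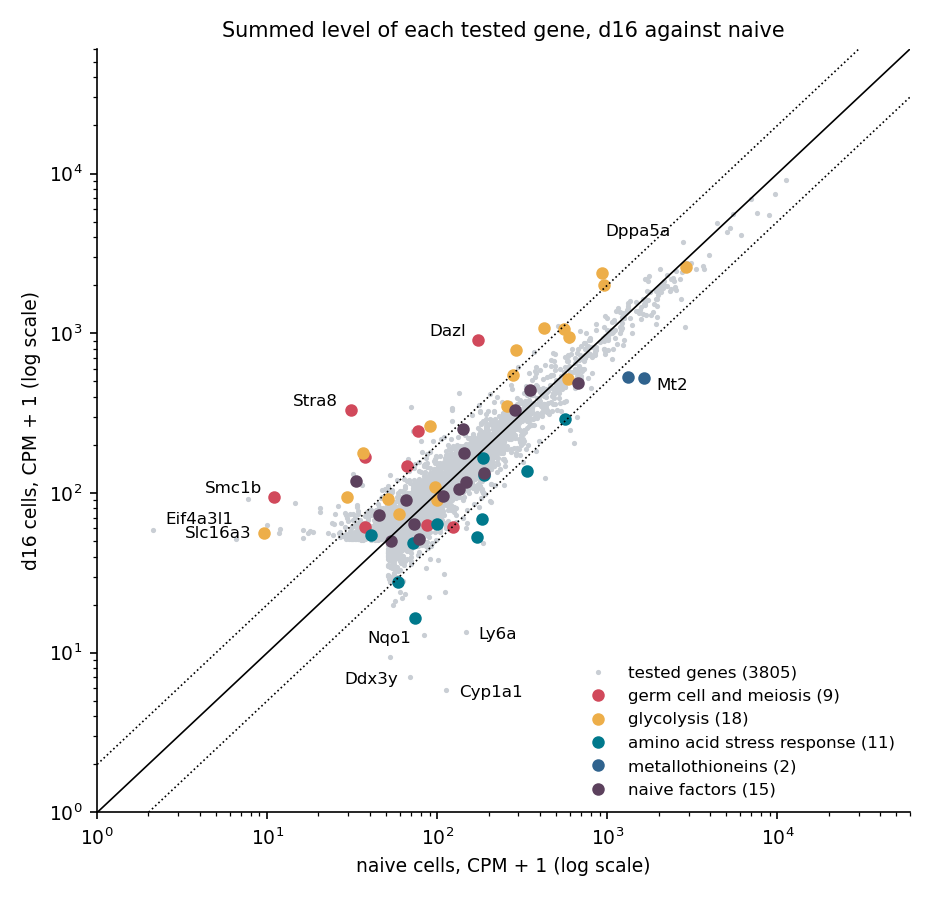
Summed level in the naive members (horizontal axis) against the d16 members (vertical axis), both in CPM + 1 on log scales, for each of the 3805 tested genes. The solid line marks equal levels and the dotted lines a 2-fold difference. Coloured points are the tested genes of 5 lists: 6 of 9 germ cell and 8 of 18 glycolysis genes lie above the upper line, both metallothioneins and 5 of 11 amino acid stress genes below the lower one, and 14 of 15 naive factors between the lines.

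For the label of the d16 cells as naive-like, the naive and the core pluripotency lists were described. Of 22 naive factors 15 were tested, 7 of them with a ratio above 0 and 8 below, and the median log2 ratio was -0.10. Klf2, a zinc finger factor of the naive network, stood at 332 CPM in d16 and 285 CPM in naive. Esrrb, an orphan nuclear receptor, stood at 117 and 147 CPM, and Tfcp2l1, a target of STAT3, at 94.9 and 107 CPM. Zfp42 was at 488 CPM in d16 and 667 CPM in naive. In the primed cells these 4 genes were at 37.5, 6.09, 7.41 and 26.1 CPM. For these 4 genes, which were picked from the 15, the d16 members lay within 1.5-fold of naive cells and far above primed cells. Over the 15 genes the log2 ratios of d16 to naive ran from -0.60 to 1.85. The d16 and naive members were chosen for high Dppa5a and the primed cells for low Dppa5a, itself a gene of the naive state. The contrast with primed cells is therefore no independent check of the label.

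Among the core genes, Pou5f1 (345 and 361 CPM) and Nanog (510.2 and 496 CPM) were at nearly the same level in d16 and naive members. Sox2 was at 564 and 346 CPM, a log2 ratio of 0.70. Of the 10 tested core genes 1 was called higher, beside 2.26% of all tested genes, and none lower. This was Tdgf1, a co-receptor for Nodal. It was at 764 CPM in d16 (95% interval 752 to 776), 369 CPM in naive (359 to 379), 171 CPM in d16+10p and 530 CPM in primed cells. Its ratio was 1.05, just past the limit, and fell under it with TMM or median-of-ratios scaling and in the comparison without chromosomes 6, 8 and 11 described further on. L1td1, an RNA-binding protein of pluripotent cells, was lower without reaching 2-fold, at 99.3 against 185 CPM.

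Dppa3 (Stella), a maternal factor that protects methylation imprints, was the 1 called of 15 tested naive factors, beside 2.26% of all tested genes called higher. It was at 119 CPM in d16 (114 to 123), 32.1 CPM in naive (29.2 to 35.2), 147 CPM in d16+10p and 5.69 CPM in primed cells. Both populations derived from Oct4GIP in the naive-like state thus had more Dppa3 than the Rex1-GFP cells. Its reads were spread unevenly in each group. The 10% of members with most reads held 57.1% of them in d16, 72.5% in naive and 41.7% in d16+10p.

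Of 25 listed genes of the primed and formative epiblast 4 reached the test, and none was called. All 4 had a ratio above 0, beside 2134 of all 3805 tested genes, with a median of 0.38. Zic5 had the largest ratio, at 80.6 CPM in d16, 44.1 CPM in naive and 68.9 CPM in primed cells. Sox4 was at 156 CPM in d16, 124 CPM in naive and 192 CPM in primed cells, and Sox11 at 110, 80.7 and 264 CPM. Dnmt3a, a DNA methyltransferase, was at 54.0, 47.9 and 72.5 CPM. Summed over the 25 genes, the list stood at 626 CPM in d16, 478 CPM in naive and 1677 CPM in primed cells. Among members under the level filter, chosen after their values were seen, were Pim2, a kinase, at 12.4 and 8.75 CPM against 276 CPM in primed cells, and Fgf5, at 16.7 and 14.7 CPM against 63.3 CPM.

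Germ cell and meiosis genes were the main group that was higher in the d16 members. Of 33 listed genes 32 were in the table and 9 were tested. Of these 9, 6 were at least 2-fold higher, beside 2.26% of all tested genes, and 1 was lower. Because 4 of the 9 passed the level filter only through their d16 level, the count was also made over the 5 that reached 50 CPM in both groups: 3 were higher (beside 1.14%) and 1 was lower. The list had been chosen with its direction in these data known. Summed over all 32 genes, including those under the filter, the list stood at 2471 CPM in d16, 751 CPM in naive, 899 CPM in d16+10p and 182 CPM in primed cells.

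Dazl, an RNA-binding protein that licenses germ cell development, had the highest level of the group. It was at 900.2 CPM in d16 (887 to 913) and 174 CPM in naive (167 to 181), a 5.16-fold difference after the pseudocount of 1 CPM was added to both levels, as for all folds given here. It was at 226 CPM in d16+10p, 27.8 CPM in primed cells and 52.7 CPM in the other d16 cells, which were those with Dppa5a below 1000. The d16 members thus stood above each of the other 4 groups.

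Stra8, which is induced by retinoic acid at the entry into meiosis, was at 331 CPM in d16 (323 to 339) and 29.9 CPM in naive (27.1 to 32.9), a 10.7-fold difference and the largest in the group. Its level in d16+10p was 127 CPM, between the d16 and the naive members. Smc1b, the meiosis-specific subunit of cohesin, was at 93.2 CPM (89.1 to 97.4) against 10.0 CPM (8.44 to 11.8), an 8.55-fold difference, and at 15.9 CPM in d16+10p. Hormad1, a protein of the meiotic chromosome axis, was at 168 CPM (163 to 174) against 36.6 CPM (33.5 to 39.8), a 4.51-fold difference, and at 47.8 CPM in d16+10p.

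A pair of genes with a moderate naive level belonged to the same group. The X-linked gene 1700013H16Rik was at 245 CPM in d16 and 75.6 CPM in naive. Ooep, a component of the maternal complex of the oocyte cortex, was at 147 and 65.1 CPM. In primed cells both were below 10 CPM.

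Not every gene of the list was higher. Rpl10l, a retrogene that replaces the X-linked ribosomal protein gene Rpl10 in meiosis, was called lower, at 59.9 CPM in d16 against 123 CPM in naive and 49.0 CPM in d16+10p. Tuba3a, an alpha-tubulin of the testis, was at 62.2 against 86.5 CPM. Genes below the level filter also differed, and the following were chosen after their values were seen. Asz1, a component of the germ cell granule, was at 45.0 CPM (935 reads) in d16 and 2.89 CPM (41 reads) in naive, and Ddx4 (Vasa), an RNA helicase of germ cells, at 41.4 and 5.93 CPM. Sycp3, which forms the lateral element of the synaptonemal complex, was at 27.9 and 8.11 CPM, and Mei1, needed for meiotic recombination, had 5 reads in d16 and none in naive. Outside the list, Cyct, the testis form of cytochrome c, was at 85.5 against 13.5 CPM and was among the 10 genes with the largest ratio. Sohlh2, a transcription factor of early germ cells that was also named after its value was seen, was at 57.5 against 15.3 CPM.

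The share of d16 members with a read differed among these genes. Each cell was thinned to 5000 reads to remove the difference in depth, which left 1238 of the d16 and 560 of the naive members. A Dazl read was then found in 88.0% of d16 cells (exact 95% interval 86.1 to 89.8) and 38.6% of naive cells (34.5 to 42.7). Without thinning the shares were 94.8% and 64.0%. As a background level, 8.57% of the thinned d8 cells with Dppa5a below 1000 had a Dazl read. Stra8 was read in 56.9% of thinned d16 cells (54.1 to 59.6) and 8.75% of thinned naive cells (6.54 to 11.4), beside 4.39% of the d8 cells. Without thinning these Stra8 shares were 71.8% in d16 and 31.8% in naive. Hormad1 was read in 40.6% of thinned d16 and 15.2% of thinned naive cells (58.9% and 39.3% without thinning), and Smc1b in 30.0% and 3.93% (52.0% and 12.5%). Dazl and Stra8 were thus read in most thinned d16 cells, and Hormad1 and Smc1b in fewer.

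The 6 higher genes (Dazl, Stra8, Hormad1, Smc1b, 1700013H16Rik and Ooep) were also counted together in each thinned cell. At least 3 of the 6 were read in 72.2% of d16 cells (69.6 to 74.7), 9.11% of naive cells (6.86 to 11.8), 18.2% of d16+10p cells (15.7 to 20.8) and 0.0795% of d8 cells. None of the 6 was read in 2.02% of d16 cells and 28.0% of naive cells. These genes were chosen for their difference, so the counts describe how the reads were shared among cells and add no support.

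**Figure D3:**
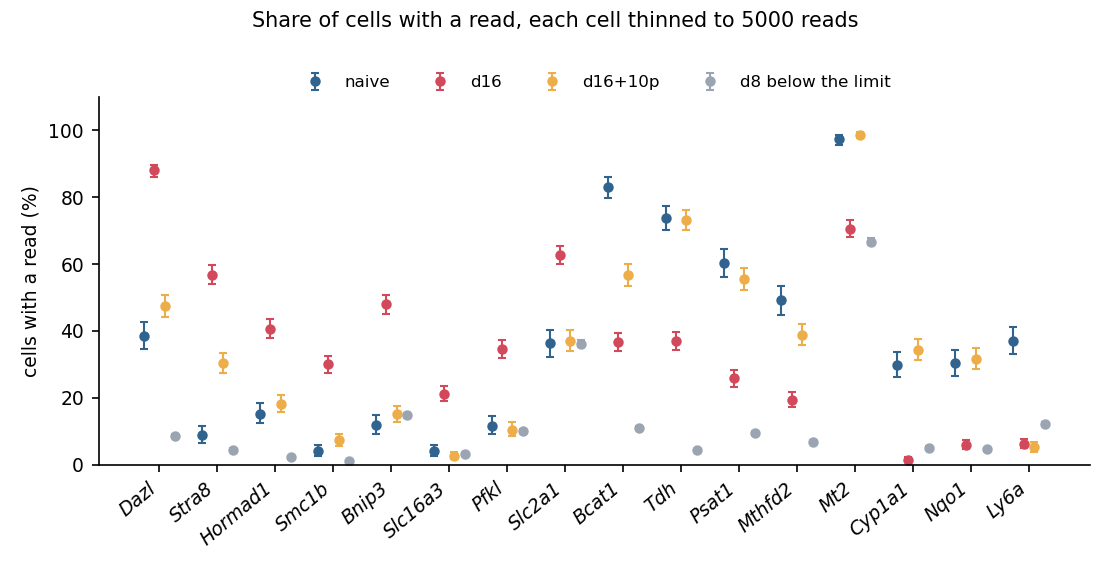
Share of cells with at least 1 read of a gene (%, vertical axis) after each cell was thinned to 5000 reads, for 16 genes (horizontal axis) in naive, d16 and d16+10p members and in d8 cells with Dppa5a below 1000. Points are shares and bars exact 95% intervals, which cover counting error only. Dazl was read in 88.0% of d16 and 38.6% of naive cells, and Cyp1a1 in 1.37% and 29.8%.

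Because these genes differed together, the 250 bases before the RefSeq start site (GRCm38.p6) are shown for the 4 germ cell genes with the largest ratios, written along the strand of the gene. Capitals mark CACGTG, an E-box, and GCGGGA, a sequence of the E2F type, searched on both strands.
Dazl (chr17:50293621-50293870, minus strand): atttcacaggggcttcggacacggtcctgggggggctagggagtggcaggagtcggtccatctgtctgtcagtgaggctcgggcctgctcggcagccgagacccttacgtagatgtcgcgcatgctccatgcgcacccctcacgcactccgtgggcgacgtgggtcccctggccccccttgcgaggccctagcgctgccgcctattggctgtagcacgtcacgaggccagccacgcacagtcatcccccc
Stra8 (chr6:34920698-34920947, plus strand): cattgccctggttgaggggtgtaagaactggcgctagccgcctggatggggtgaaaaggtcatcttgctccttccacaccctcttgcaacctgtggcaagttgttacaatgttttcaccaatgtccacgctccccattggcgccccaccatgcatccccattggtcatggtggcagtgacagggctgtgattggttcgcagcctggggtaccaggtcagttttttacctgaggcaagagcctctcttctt
Hormad1 (chr3:95559427-95559676, plus strand): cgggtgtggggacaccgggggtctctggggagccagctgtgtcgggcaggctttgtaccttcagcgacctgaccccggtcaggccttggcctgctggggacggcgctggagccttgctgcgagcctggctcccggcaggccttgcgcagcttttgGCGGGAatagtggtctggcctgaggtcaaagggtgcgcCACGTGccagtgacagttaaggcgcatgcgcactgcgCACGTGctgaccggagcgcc
Smc1b (chr15:85131958-85132207, minus strand): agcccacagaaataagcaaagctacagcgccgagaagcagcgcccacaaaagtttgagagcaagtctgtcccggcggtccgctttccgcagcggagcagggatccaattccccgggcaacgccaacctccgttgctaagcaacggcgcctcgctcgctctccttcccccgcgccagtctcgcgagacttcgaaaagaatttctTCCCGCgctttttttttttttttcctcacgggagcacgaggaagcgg
Hormad1 held CACGTG 2 times and GCGGGA 1 time, Smc1b held GCGGGA 1 time on the other strand, and Dazl and Stra8 held neither. In windows of the same length before all 27025 RefSeq start sites (1 per symbol), 6.05% held CACGTG and 16.9% held GCGGGA. Of the 9 tested genes of the list 8 had a window, and GCGGGA was in 4 of these, among them Rpl10l and Tuba3a, which were not higher. CACGTG was in 1 of the 8, that of Hormad1. The 8 windows held a median of 10 CG dinucleotides against 6 over all windows, and both sequences contain CG. The 4 windows differed in CG dinucleotides, with 20 in Dazl, 19 in Hormad1 and 25 in Smc1b but 5 in Stra8, where the median of all windows was 6. In the GENCODE annotation Stra8 starts earlier, at position 34920163. Its window thus lies inside that gene and describes the RefSeq start only.

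Genes of glycolysis and of the response to low oxygen formed the second group that was higher in d16. Of 22 listed genes 18 were tested and 8 were at least 2-fold higher, beside 2.26% of all tested genes, and none was lower. Of the 15 that reached 50 CPM in both groups, 5 were higher (beside 1.14%). The summed level of the list was 13364 CPM in d16, 8298 CPM in naive, 7992 CPM in d16+10p and 10547 CPM in primed cells.

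Slc16a3, the lactate exporter MCT4, had the largest ratio of the group, at 54.9 CPM in d16 (51.7 to 58.1), 8.61 CPM in naive (7.15 to 10.3) and 6.66 CPM in d16+10p. Bnip3, a mitophagy receptor induced by hypoxia, reached 177 CPM in d16 (171 to 183) but 35.5 CPM in naive (32.5 to 38.7) and 39.5 CPM in d16+10p. It was at 285 CPM in the other d16 cells, above the d16 members, and at 75.2 CPM in primed cells. Pfkl, a phosphofructokinase subunit, was at 93.9 CPM in d16 and 28.6 CPM in naive, and the glucose transporter Slc2a1 at 262 and 90.0 CPM.

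Enzymes with a high level in every group differed by smaller folds. Aldoa (aldolase) was at 2394 CPM in d16 and 933 CPM in naive, Ldha (lactate dehydrogenase) at 1082 and 423 CPM, Pgk1 (phosphoglycerate kinase) at 781 and 288 CPM and Pkm (pyruvate kinase) at 2004 and 949 CPM. In d16+10p these 4 genes were at 1319, 228, 322 and 1059 CPM. Gapdh was at nearly the same level in d16 and naive, at 2613 and 2904 CPM. The glucose transporter Slc2a3 and the hexokinase Hk2 had ratios of -0.19 and -0.13. Genes of this group that were high in the d16 members were also high in the other cells of the d16 culture: Pgk1 was at 894 CPM and Ldha at 911 CPM there.

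The windows before the start sites of 3 of these genes are shown because ACGTG is the core of the element bound by hypoxia-inducible factors. Capitals mark ACGTG, searched on both strands; it lies within the E-box CACGTG.
Slc16a3 (chr11:120948817-120949066, plus strand): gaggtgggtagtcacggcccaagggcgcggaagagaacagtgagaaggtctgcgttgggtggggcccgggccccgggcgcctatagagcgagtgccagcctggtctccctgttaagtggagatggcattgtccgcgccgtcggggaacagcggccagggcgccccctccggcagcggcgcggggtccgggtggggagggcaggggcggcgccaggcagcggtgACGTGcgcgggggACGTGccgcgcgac
Bnip3 (chr7:138909507-138909756, minus strand): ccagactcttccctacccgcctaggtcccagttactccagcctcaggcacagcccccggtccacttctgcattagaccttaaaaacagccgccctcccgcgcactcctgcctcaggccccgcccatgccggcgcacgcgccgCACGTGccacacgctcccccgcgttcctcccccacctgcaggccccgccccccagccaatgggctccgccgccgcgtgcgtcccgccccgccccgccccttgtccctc
Pgk1 (chrX:106186850-106187099, plus strand): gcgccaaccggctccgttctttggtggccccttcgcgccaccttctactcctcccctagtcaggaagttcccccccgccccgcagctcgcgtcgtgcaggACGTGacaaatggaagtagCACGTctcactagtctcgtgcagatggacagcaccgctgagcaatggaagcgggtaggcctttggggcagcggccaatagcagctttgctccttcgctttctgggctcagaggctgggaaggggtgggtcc
Each window held 2 matches, which in Bnip3 are the 2 strands of 1 CACGTG. The window of Slc16a3 lies inside the gene as placed by GENCODE, which starts it at position 120948480. Of 16 tested glycolysis genes with a window 8 held ACGTG, among them Hk2, Pgam1 and Slc16a1, which were not called. The share over all 27025 windows was 16.6%, but the windows of the glycolysis genes held a median of 16.5 CG dinucleotides against 6 over all windows, and ACGTG itself contains CG. A match describes the sequence and is not a measured site.

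**Figure D4:**
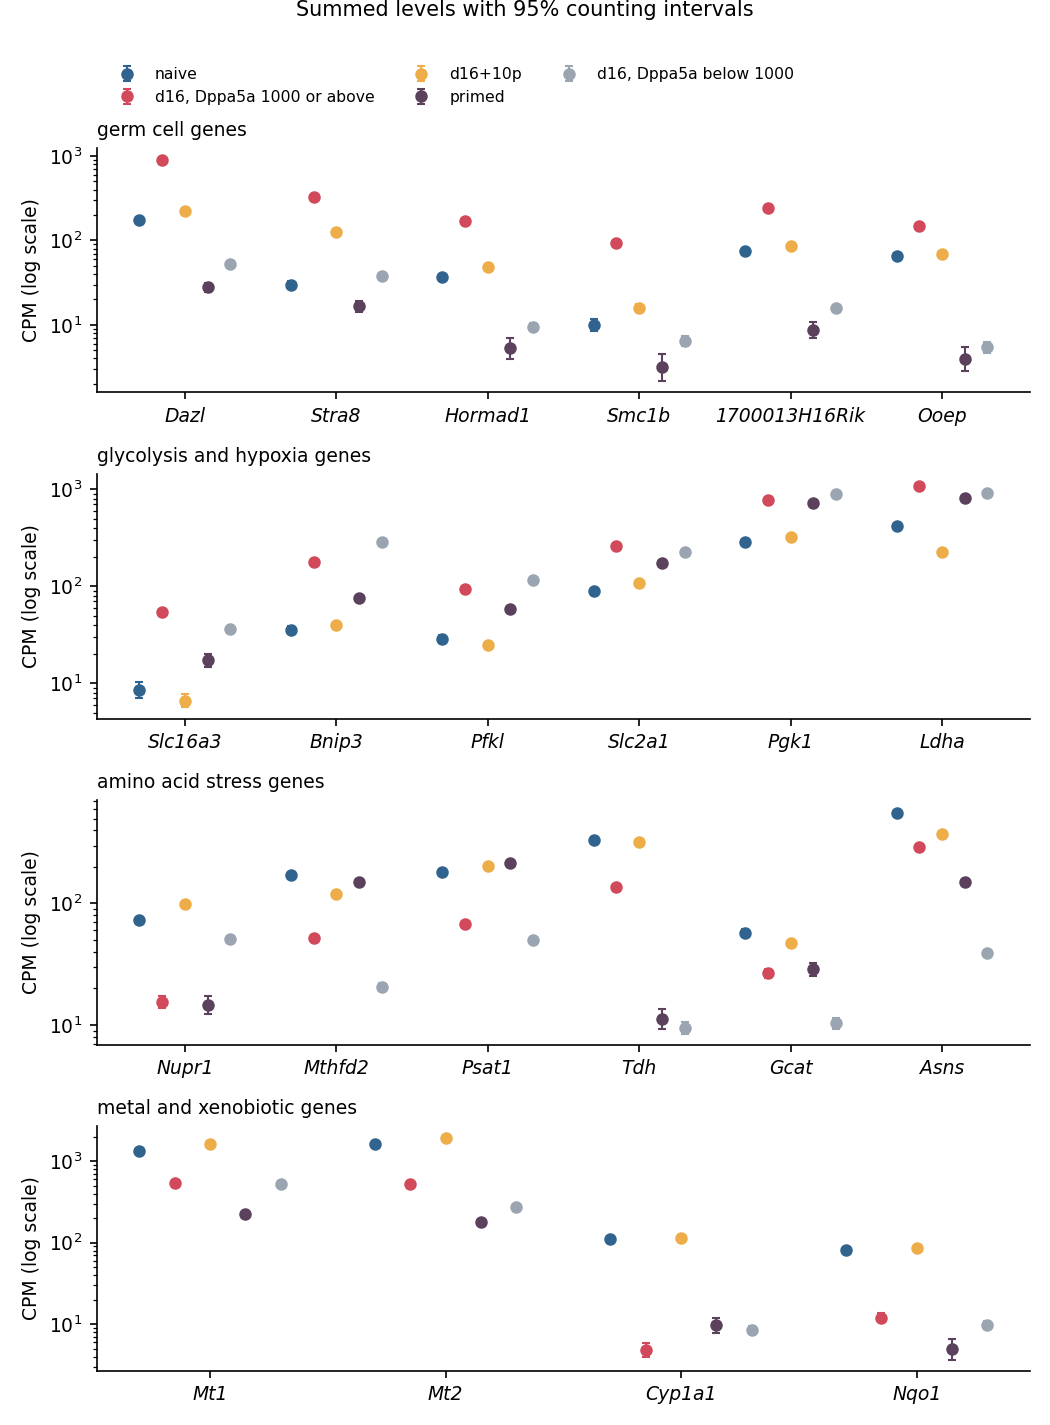
Summed level (CPM, log scale, vertical axis) of 22 genes in 4 groups (horizontal axis) for naive, d16, d16+10p and primed cells and for d16 cells with Dppa5a below 1000. Points are levels and bars exact 95% counting intervals. Dazl stands at 900.2 CPM in d16 and 174 CPM in naive, and Cyp1a1 at 4.81 and 112 CPM, with 114 CPM in d16+10p.

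The genes that were lower in the d16 members included several of amino acid metabolism. Of 18 genes of the amino acid stress response, many of them targets of the factor ATF4, 11 were tested, 5 were at least 2-fold lower, beside 1.08% of all tested genes, and none was higher. Of the 7 that reached 50 CPM in both groups, 3 were lower (beside 0.654%). Nupr1, a small stress-induced nuclear protein, was at 15.5 CPM in d16 (13.9 to 17.3) and 72.5 CPM in naive (68.1 to 77.0). Mthfd2, a mitochondrial enzyme of folate metabolism, was at 52.0 CPM (49.0 to 55.2) against 170.0 CPM (163 to 177). Psat1, of serine synthesis, was at 67.9 against 182 CPM. Tdh, the threonine dehydrogenase on which mouse embryonic stem cells depend, was at 135 against 335 CPM, and its partner Gcat, which completes the conversion to glycine, at 26.7 against 57.6 CPM.

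Expanded d16+10p cells had 98.7 CPM of Nupr1, 119 CPM of Mthfd2, 205 CPM of Psat1 and 319 CPM of Tdh. These levels were all nearer to the naive than to the d16 level. Atf4 itself, whose activity is set mostly by translation, was at 165 CPM in d16 and 186 CPM in naive. Asns (asparagine synthetase) was at 290.4 against 559 CPM and just missed the 2-fold limit. After thinning, a Tdh read was found in 36.9% of d16 cells (34.2 to 39.7) and 73.9% of naive cells (70.1 to 77.5), against 58.8% and 95.3% without thinning.

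Bcat1, the cytosolic transaminase of branched-chain amino acids, was among the 10 genes with the smallest ratio, at 123 CPM in d16, 427 CPM in naive and 217 CPM in d16+10p. The aminoacyl-tRNA synthetases, which charge tRNAs and several of which are ATF4 targets, were added as a list after the values had been seen. Of 20 genes 19 were tested, and 16 had a ratio below 0, beside 1671 of all 3805 tested genes. Of the 19, 3 were called lower (beside 1.08% of all tested genes). Their median log2 ratio was -0.45 over the 19, beside 0.06 over all tested genes. Of the 17 that reached 50 CPM in both groups, 2 were called lower (beside 0.654%). The 3 called genes were Aars at 86.7 against 207 CPM, Yars at 37.4 against 89.9 CPM and Nars at 111 against 245 CPM.

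Both abundant metallothioneins, which bind zinc and other metals, were lower. Mt2 was at 526 CPM in d16 (516 to 536), 1632 CPM in naive (1611 to 1653) and 1925 CPM in d16+10p. Mt1 reached 533 CPM in d16 (523 to 543), 1325 CPM in naive (1306 to 1344) and 1611 CPM in d16+10p. In primed cells Mt2 was at 180.1 and Mt1 at 223 CPM. The median d16 member had 295 CPM of Mt2 (quartiles 127 and 628) and the median naive member 1467 CPM (974 and 2145), so that the upper quartile of d16 lay below the lower quartile of naive. Genes of the locus can share reads, since the antisense transcript Gm45774 overlaps Mt2 and was also called lower.

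Cyp1a1, a cytochrome that oxidises foreign compounds and is the standard target of the aryl hydrocarbon receptor, had the smallest ratio of all tested genes. It was at 4.81 CPM in d16 (100 reads, 3.92 to 5.85), 112 CPM in naive (107 to 118) and 114 CPM in d16+10p, and at 9.75 CPM in primed cells. Nqo1, a quinone reductase induced by the same receptor and by oxidative stress, was at 12.0, 82.1 and 87.1 CPM in d16, naive and d16+10p. Both populations kept in 2iL thus had high levels, and the populations not kept in 2iL had low ones. Other culture conditions also differed between these populations, and the cause was not tested. Other targets did not share the pattern: of a list of 8 that was added after the values were seen, 3 were tested, and Tiparp, the third, was at 87.9 CPM in d16 and 102 CPM in naive.

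Scd1, a desaturase that makes unsaturated fatty acids, was at 23.1 CPM in d16, 110 CPM in naive and 96.0 CPM in d16+10p. None of 12 tested cholesterol synthesis genes was called. Of these, 11 had a ratio below 0, beside 1671 of all 3805 tested genes, and the median was -0.26. Fdps, which makes farnesyl pyrophosphate, had the smallest ratio of these, at 113 against 205 CPM. Tuba4a, an alpha-tubulin, was at 21.4 CPM in d16 and 88.3 CPM in naive, and the small nucleolar RNA Snora73b at 8.38 and 51.9 CPM.

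For some genes the d16 members and their d16+10p relatives stood together, apart from the naive cells. Ly6a, the surface protein Sca-1, was at 12.4 CPM in d16 (10.9 to 14.0), 146 CPM in naive (140.2 to 153), 11.9 CPM in d16+10p and 11.6 CPM in primed cells. The Y-linked helicase Ddx3y was at 6.02, 68.3, 5.24 and 5.18 CPM in the same order, and the Y-linked translation factor Eif2s3y at 2.41, 36.3, 2.92 and 3.96 CPM. In the d8-tagged cells with Dppa5a below 1000, from Oct4GIP cells cultured on feeders, Ly6a was at 50.9, Ddx3y at 32.0 and Eif2s3y at 7.88 CPM. These levels lay between those of the naive cells and of the other Oct4GIP groups. Feeder cells under the d8 tag were not told apart from Oct4GIP cells. A Ddx3y read was found in 15.6% of these d8 cells, and the 10% with most reads held 90.6% of its reads. The study's list of resources gives both lines as XX, so the Y-linked reads, which were most abundant under the naive tag, go against the stated sex, and their source was not tested. Pigp, a subunit of the enzyme that starts the GPI anchor, went the other way, with 345 CPM in d16, 69.4 CPM in naive and 267 CPM in d16+10p, but with 59.0 CPM in primed cells. Of the unnamed transcripts, the pseudogenes Gm10036 and Gm47654 had the smallest ratios, at 47.8 against 184 CPM and 29.9 against 108 CPM, and were at 50.6 and 17.2 CPM in d16+10p.

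The remaining lists held few called genes, to be read beside 2.26% of all tested genes called higher and 1.08% called lower. With TMM scaling the median of all genes moved by -0.15, so that list medians between 0 and 0.15 given here lose their sign. Tet1, which oxidises 5-methylcytosine, was called in the list of DNA methylation genes, at 178 CPM in d16, 80.5 CPM in naive and 170 CPM in d16+10p, and the median of the 8 tested genes was 0.07. Slc38a4, an amino acid transporter, was higher among 15 tested imprinted genes, at 111 against 35.2 CPM, and Mest was lower, at 36.8 against 99.6 CPM. Of 14 tested p53 targets 13 had a ratio above 0, beside 2134 of all 3805 tested genes, and the median was 0.65. Of the 14, 2 passed 2-fold (beside 2.26% of all tested genes), Eda2r (65.8 against 28.9 CPM) and Plk2 (137 against 67.4 CPM). Plk2 was called under 9 of the 15 alternatives. Of 2 tested genes of the Wnt list 1 was called, Sp5, a target of Wnt signalling, at 55.4 against 25.5 CPM.

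Few tested genes of the signalling lists were called, beside 2.26% of all tested genes called higher and 1.08% called lower. The median log2 ratio was 0.16 over 8 ERK feedback and target genes, 0.07 over 7 genes of LIF, JAK and STAT3 and 0.40 over 6 BMP and Id genes. It was 0.39 over 9 Nodal and activin genes, of which Tdgf1 was called and Lefty2, a Nodal inhibitor, was at 26.7 CPM in d16 and 54.3 CPM in naive. Over 6 genes of AMPK and of the purine synthesis steps around AICAR it was 0.02, with Atic, which converts AICAR onwards, at 66.3 and 84.2 CPM and Paics at 329 and 319 CPM. It was -0.17 over 4 genes of MHC class I. The tag antibodies bind CD9 and CD63, whose genes were at 371 against 464 CPM and 455 against 509 CPM.

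A few cells carried some of the largest ratios. Eif4a3l1, a gene of the Eif4a3 family whose reads can be shared with near copies, was at 57.3 CPM in d16 and 1.13 CPM in naive (16 reads). Reads of it were found in 4.46% of d16 and 2.46% of naive members. In 36 d16 members the summed list of 14 genes of the 2-cell stage, among them the Zscan4 genes, reached at least 500 CPM. No naive member did, 0 of 570 cells, which allows a share of up to 0.526%. Without those 36 cells the log2 ratio of Eif4a3l1 was 0.50 instead of 4.77, and the ratios of Gm16344 and Gm38947, the unnamed transcripts with the largest ratios, were 0.73 and 0.87 instead of 3.58 and 2.96. None of the 2-cell list was itself tested, Zscan4c being at 13.0 CPM in d16 and 0.353 CPM in naive.

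Prelid2, a mitochondrial protein of the PRELI family, was at 58.2 CPM in d16, 10.9 CPM in naive and 10.5 CPM in d16+10p, and was among the 10 genes with the largest ratio.

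Markers of other cell types were compared because the pooled library held feeders and differentiated cells. The fibroblast list, all 10 genes with reads, summed to 628 CPM in d16 and 559 CPM in naive, with nearly equal medians per cell of 471 and 469 CPM, and to 3763 CPM in the other d16 cells. None of its 6 tested genes was called, with Col1a1 at 101 and 87.9 CPM. Smooth muscle, neural and endoderm markers summed to 315 against 286, 391 against 381 and 115 against 94.8 CPM, and epithelial markers to 671 against 757 CPM. No gene of these 4 lists was called. In each of the 5 lists every marker had at least 1 read in both groups. Single members were high in some of these lists. Fibroblast markers reached 2000 CPM in 28 d16 members (2.19%) and 7 naive members (1.23%). Epithelial markers did so in 21 d16 members (1.64%) and 14 naive members (2.46%). The comparison was not repeated without these cells.

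Of the cell type lists, only the macrophage markers held a called gene. Lyz2, lysozyme, was called lower, at 205 CPM in d16 and 635 CPM in naive, while its median per cell was 151 and 145 CPM. The 10% of naive members with most Lyz2 held 80.6% of its reads, against 39.7% for the same share of d16 members. The summed list of 10 markers was at 327 and 842 CPM. It reached 2000 CPM in 16 naive and 11 d16 members, and without these cells the log2 ratio of Lyz2 was 0.06 instead of -1.62. Without these cells the ratio of Cyp1a1 was -4.30 and that of Mt2 was -1.65, nearly as with them.

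Chromosomes 6, 8 and 11 had been set in advance as the ones to leave out, so their medians and intervals are a description. Their genes were lower as whole groups. The median log2 ratio was -0.27 over 212 tested genes of chromosome 6, -0.21 over 225 of chromosome 8 and -0.19 over 318 of chromosome 11, or -0.33, -0.26 and -0.24 relative to the median over tested autosomal genes. The distribution-free 95% intervals of the medians over genes were -0.33 to -0.22, -0.26 to -0.18 and -0.24 to -0.14, and no other autosome had a median below 0. Of the genes on these chromosomes 79.7%, 78.7% and 76.4% lay below the autosomal median. Summed over the same tested genes, chromosome 6 stood at 36766 CPM in d16 and 43579 CPM in naive, chromosome 8 at 34362 and 42166 CPM and chromosome 11 at 68849 and 80910 CPM. The levels in d16+10p were 35647, 38769 and 73223 CPM and in primed cells 35519, 34926 and 71451 CPM, in each case below the naive level.

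**Figure D5:**
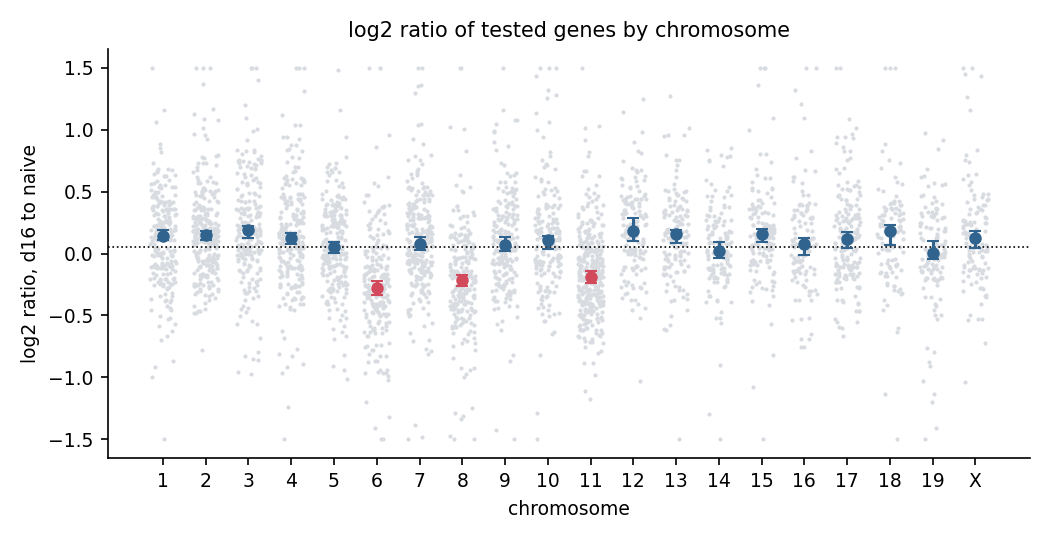
log2 ratio of d16 to naive (vertical axis) for tested genes by chromosome (horizontal axis). Grey points are genes, drawn at 1.5 or -1.5 where they lie beyond. Coloured points are medians with distribution-free 95% intervals over genes, and the dotted line is the median over autosomal genes. The medians of chromosomes 6, 8 and 11, in red, lie at -0.27, -0.21 and -0.19, below those of all other chromosomes shown.

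As set in advance, the comparison was also made without the genes of these 3 chromosomes, with the totals recomputed. Of 3686 genes that were then tested, 88 were at least 2-fold higher in d16 (2.39%) and 42 lower (1.14%). More genes passed the level filter than before, relative to those left, because each level rose with the smaller total. On the 3 chromosomes 15 of 755 tested genes had been lower (1.99%) and 10 higher (1.32%), against 26 of 3050 (0.852%) and 76 (2.49%) on the others. Of the genes named above, those on chromosome 6 are Stra8, Dppa3, Nanog, Tuba3a, Asz1, Gapdh, Slc2a3, Hk2, Mthfd2, Asns, Bcat1, Mest, Eif4a3l1 and Cd9. Those on chromosome 8 are Zfp42, Klf2, Aars, Mt1, Mt2, Gm45774 and Nqo1, and those on chromosome 11 are Slc16a3 and Col1a1. Near the 2-fold limit, Tdgf1 (1.00) and Plk2 (0.97) were no longer called without the 3 chromosomes, and Lefty2 (-1.05) was newly called lower. Among germ cell genes 7 remained in the list and 5 were higher, and among glycolysis genes 13 remained and 7 were higher. Of the amino acid stress genes 9 remained and 4 were lower. On the reduced totals the ratio of Dazl was 2.32, of Smc1b 3.07, of Bnip3 2.24 and of Cyp1a1 -4.37.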

How the data were processed

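The study tagged 5 mouse cell populations, pooled them and sequenced 1 cDNA library (BD Rhapsody). Per the labels and the study's methods, the authors trimmed reads with cutadapt 2.10, mapped them to Ensembl GRCm38.p6 transcripts with Bowtie2 2.3.4.1, assigned cells to tags and removed cells with ambiguous tags as doublets. The deposited table holds raw counts of reads, not of unique molecules, for 33963 genes in 17720 cells (3179 to 111822 reads per cell). No doublet caller was run here. Cells were grouped by the tag prefix of their column. Reads were summed over cells with Dppa5a at 1000 RPM or more and given as CPM. Mitochondrial genes stayed in the totals but were not tested. Level intervals are exact Poisson, and shares and ratios use exact binomial intervals (95%). Genes were named by rule: the 10 largest and 10 smallest ratios (2 each way for unnamed symbols) and, per list, up to 4 called members each way or else the 4 highest. Other genes were chosen outside this rule, and the text marks only some of them as chosen after their values were seen. A gene that the rule names is not reported here. The members and the lists were chosen with earlier results of these data known. The 3 chromosomes left out were also set before the comparison and not picked from its medians. The calculation was tested on simulated data. Alternatives were 2 other scalings, level filters, pseudocount, Dppa5a limits, cell filters and thinning. Python 3.11.15, NumPy 2.4.6, SciPy 1.17.1, pandas 2.3.3, matplotlib 3.10.9, R 4.3.3 and edgeR 4.0.16 (TMM factors only) were used.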

Additional observations from a re-analysis of the deposited data

How the results depend on the processing

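Of 44 named genes that were called, 35 were called under all 15 alternatives and 43 kept their direction. The 9 that lost the call somewhere were Eif4a3l1, Gm16344, Gm38947, Eda2r, Sp5, Tdgf1, Plk2, Rpl10l and Lyz2. The level filter set the counts: higher and lower genes numbered 208 and 94 at 20 CPM, 44 and 25 at 100 CPM, and 743 and 252 with no filter. Without chromosomes 6, 8 and 11 they numbered 186 and 86, 37 and 21, and 683 and 240. Lower genes numbered 71 with TMM and 76 with median-of-ratios scaling, and without the 3 chromosomes the latter gave 55 higher and 68 lower. Relative to the autosomal median, the chromosome 6 median was -0.26 at 20 CPM, and with no filter chromosomes 6, 8 and 11 stood at -0.057, -0.064 and -0.086. The share of d16 cells chosen was 32.2% and 25.4% at Dppa5a limits of 500 and 2000, 33.8% for cells with 2000 to 8000 genes and 33.3% after thinning, and for naive cells it was 74.3%, 58.8%, 76.7% and 76.7%. In an alternative chosen after seeing the data, without cells whose macrophage markers reached 2000 CPM, Lyz2 turned to 0.057. The median of that list was then the value of Lyz2 itself, so this is 1 result. Lyz2 is also on the list by which the cells were removed, so its shift is no independent check. The causes of these shifts were not tested. No paired analysis was possible because each population was 1 sample. With reads in place of molecules, intervals are too narrow by an unknown amount.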

Other observations

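The following genes lie outside the lists and were chosen after their values were seen. Ftl1, the ferritin light chain that stores iron, was at 1093 CPM in the d16 members and 2853 CPM in naive members. Eif4ebp1, a repressor of translation, was at 246 against 601 CPM, and the desaturase Scd2 at 299.6 against 659 CPM. Higher in d16 were Mcl1, an inhibitor of apoptosis, at 1103 against 515 CPM, and Upp1, a uridine phosphorylase, at 610.0 against 299 CPM. Rhox5, an X-linked homeobox gene, was at 331 against 121 CPM, and Txnip, a regulator of glucose uptake, at 212 against 79.7 CPM.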
